A study of Mus musculus with 4 samples.

Results

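The genes described here are 8 components of the cell's response to double-stranded RNA: the helicase sensors Ddx58 (RIG-I, newer symbol Rigi), Ifih1 (MDA5) and Dhx58 (LGP2), their adaptor Mavs, the endosomal receptor Tlr3 and its adaptor Ticam1 (TRIF), the kinase Eif2ak2 (PKR) and the RNA editing enzyme Adar. They were chosen by name, and every array probe whose RefSeq accession maps to one of them was taken, which gave 11 of the 55681 probes. Of the 8 genes, 7 passed the filter on dim probes and were tested among 24864 genes; Tlr3 did not. The cells were Lgr5-high intestinal stem cells sorted by flow cytometry. The knockout cells came from Ifnar1-/-:Lgr5-EGFP-Ires-CreERT2 mice, which lack a chain of the type I interferon receptor, and the control cells from Lgr5-EGFP-Ires-CreERT2 mice. Animals of both groups carried the Lgr5 reporter allele and had received the synthetic double-stranded RNA poly(I:C) intraperitoneally at 2 mg/kg each day for 1 week, so no untreated sample stands beside them. Neither the age of the mice nor the number behind a sample is stated in the labels. Each group had 2 samples, each on its own single-colour Agilent array, with knockout 1 and control 1 on slide 1 and knockout 2 and control 2 on slide 2.

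Cells read double-stranded RNA in several compartments. RIG-I and MDA5 detect it in the cytosol and pass the signal through MAVS on mitochondria to the kinases that switch on interferon genes, while LGP2 lacks the signalling domains of the other helicases and modulates them. TLR3 detects it in endosomes and signals through TRIF. PKR, once bound to double-stranded RNA, phosphorylates the translation factor eIF2 alpha and so halts protein synthesis, and ADAR deaminates adenosines in duplexes, which keeps the cell's own RNA from triggering MDA5 and PKR. Many of these genes are themselves induced by interferon through the interferon-stimulated response element (ISRE), a promoter motif bound by STAT and IRF proteins.

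Promoter sequence is shown for the 3 members whose start region holds the ISRE core, since interferon is known to induce genes through that motif. RefSeq windows of assembly GRCm38.p6, from 250 bases before to 50 after the gene start, were matched for 7 of the 8 members, as 9 windows of 300 bases; the promoter of Dhx58 was not analysed here. They were searched on both strands for the letters GAAA, any 2 bases and GAAA again (TTTC, any 2 bases and TTTC on the other strand). The core was found in 1 window each of Ddx58 (chr4:40239776-40240075, minus strand), Ifih1 (chr2:62646206-62646505, minus strand) and Eif2ak2 (chr17:78882523-78882822, minus strand), and capitals mark it.
Ddx58: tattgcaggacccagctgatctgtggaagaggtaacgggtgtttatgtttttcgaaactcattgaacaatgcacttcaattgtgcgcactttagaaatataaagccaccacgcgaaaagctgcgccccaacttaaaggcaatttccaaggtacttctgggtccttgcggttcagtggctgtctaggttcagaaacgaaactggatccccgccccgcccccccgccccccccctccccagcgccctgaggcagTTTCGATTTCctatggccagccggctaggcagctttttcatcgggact
Ifih1: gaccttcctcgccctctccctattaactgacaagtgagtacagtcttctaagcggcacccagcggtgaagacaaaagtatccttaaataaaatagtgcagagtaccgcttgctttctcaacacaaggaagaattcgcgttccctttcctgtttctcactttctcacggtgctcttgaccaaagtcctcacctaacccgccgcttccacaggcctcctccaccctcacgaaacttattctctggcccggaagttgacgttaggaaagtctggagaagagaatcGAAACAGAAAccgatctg
Eif2ak2: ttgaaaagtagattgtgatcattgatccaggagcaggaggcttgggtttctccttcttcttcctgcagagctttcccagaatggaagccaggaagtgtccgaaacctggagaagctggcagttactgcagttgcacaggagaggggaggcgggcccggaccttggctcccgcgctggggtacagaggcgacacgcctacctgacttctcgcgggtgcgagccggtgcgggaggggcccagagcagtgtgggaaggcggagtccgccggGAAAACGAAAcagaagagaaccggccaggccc
The match lay at bases 3 to 12 after the start in Ddx58, 33 to 42 in Ifih1 and 19 to 28 in Eif2ak2, counting the first base after the start as base 1. The windows of Mavs, Tlr3 and Ticam1 and the 3 windows of Adar did not hold these letters. The same letters occurred in 3.44% of all 32851 windows in the RefSeq table. A second motif, the gamma-activated site (TTC, any 3 bases and GAA, the same on both strands), which does not overlap these matches, was present in the Eif2ak2 window and in 1 Adar window, against 8.3% of all windows. A match is a description of letters and not a measured binding site.

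Signals are given as log2 intensity minus the 75th percentile of the same array, called the level below, so that a level of 0 equals that percentile and a difference of -1 is a halving. The arrays were alike in quality: 63.3% to 67.7% of non-control spots were well above background and 0 were saturated. Ifnar1, the targeted gene, had levels of -1.76 and -2.28 in knockout cells, against -0.21 and -0.37 in control cells (limma blocked on slide, adjusted p = 0.0497; without the block, 0.478). The labels do not place its probe relative to the deleted part. Lgr5, which defines the sorted cells, was at 3.32 and 2.93 in knockout cells and at 3.04 and 2.82 in control cells, and all 8 stem cell markers listed were well above background on every array. Paneth cell markers moved with the genotype: 7 of 7 measured markers were lower in knockout cells on both slides, with a summed linear signal, in units of the 75th percentile, of 120 and 193 in knockout cells against 465 and 595 in control cells. The 8 leukocyte markers summed to 1.45 and 1.63 in knockout cells and 1.33 and 1.49 in control cells. Of the 8, 6 were higher in knockout cells on both slides and 0 lower. Over all 24864 tested genes, 8420 were higher and 6790 lower on both slides. Only 4 of the 8 were well above background on every array, and Cd52, Coro1a and Laptm5 on none, so some of these directions rest on dim signal. The 7 macrophage and dendritic cell markers summed to 27.5 and 21.9 in knockout cells and 31.4 and 28.5 in control cells (3 lower and 1 higher on both slides), with Itgax not well above background on any array. Enteroendocrine markers (4.30 and 7.02 in knockout cells, 7.93 and 11.99 in control cells; 6 of 7 lower on both slides) and enterocyte markers (63.6 and 66.0 in knockout cells, 42.5 and 50.2 in control cells; 6 of 7 higher on both slides) moved with the genotype as well. Stromal and endothelial markers summed to 0.30 and 0.36 in knockout cells and 0.19 and 0.18 in control cells, with Col1a1, Pdgfra and Cdh5 not well above background on any array; goblet cell markers (109 and 152 in knockout cells, 140 and 143 in control cells) overlapped, and tuft cell markers were at 2.59 and 3.19 in knockout cells and 2.45 and 2.62 in control cells. The part of these other cells in the sensor values below was not tested, and in bulk samples fewer cells of a type and less RNA per cell cannot be told apart.

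Knockout cells held less signal than control cells for 5 of the 7 tested members: the 3 helicases, PKR and ADAR. The adaptors Mavs and Ticam1 had overlapping values in the 2 groups, and Tlr3 was not well above background on any array. In the limma fit without a slide term, 0 of the 7 members and 0% of all 24864 genes passed at 0.05 after Benjamini-Hochberg adjustment. Before adjustment, 5 members were lower and 0 higher at p under 0.05 in that fit, against 1.72% of all genes lower and 1.04% higher. One of the 5, Dhx58, was kept through its control arrays. Among the 6 members well above background on all 4 arrays 4 were lower at that p, against 1.54% of the 23043 genes so measured, and the same 4 had both knockout arrays below both control arrays, against 10.8%. With the slide as a block, which compares samples within each replicate number, 1 member fell after adjustment (Eif2ak2), and 0 rose, against a background of 0.33% of all genes called lower and 0.0322% called higher. For the same 5 members both knockout arrays lay below both control arrays, a pattern seen in 11.5% of all genes, and all 5 were lower on both slides, as were 27.3% of all genes. The labels do not state whether the 2 samples of a group are from different animals, so p-values cover only the variation among the arrays, part of which may be technical. The number of arrays limits the precision, and an exact permutation test of 2 against 2 samples cannot go below p = 0.333, two-sided.

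**Figure D1:**
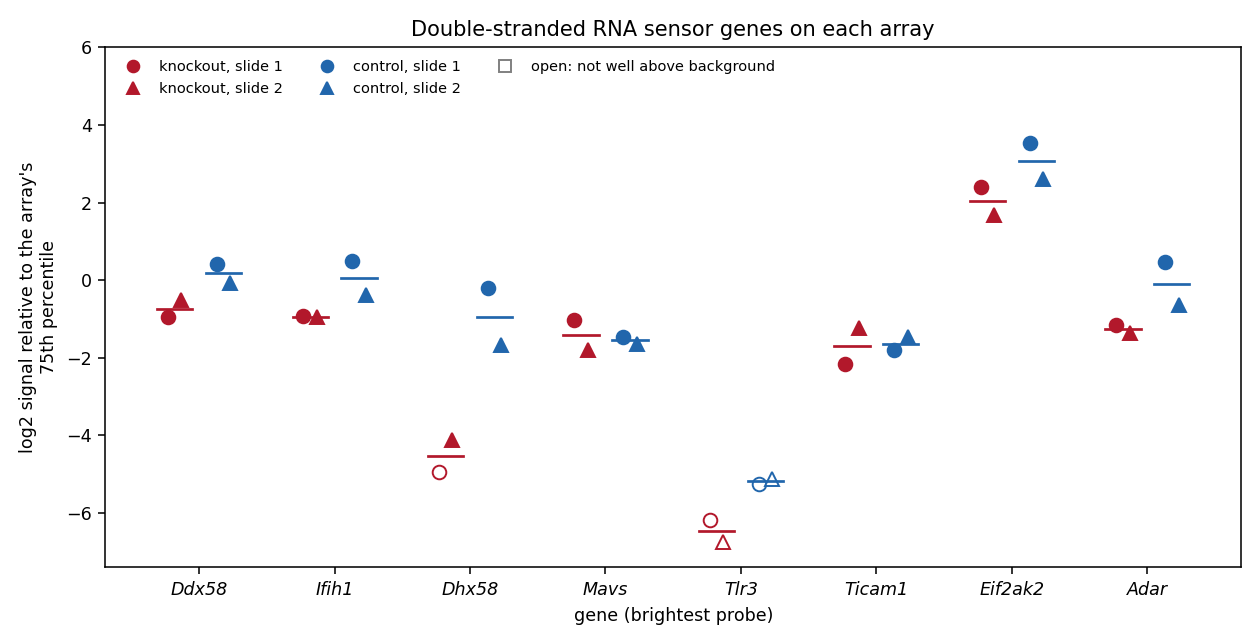
Level of each sensor gene (log2 intensity minus the 75th percentile of the array, brightest probe) on the 2 knockout and 2 control arrays; circles are slide 1, triangles slide 2, bars the group means of n = 2, and open symbols were not well above background. Both knockout arrays lie below both control arrays for Ddx58, Ifih1, Dhx58, Eif2ak2 and Adar, while the groups overlap for Mavs and Ticam1; Tlr3 is open on all 4 arrays.

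Dhx58 encodes LGP2, the helicase that tunes RIG-I and MDA5, and it was measured on both arrays of slide 2 only. Its 1 probe was at -4.94 and -4.11 in knockout cells, against -0.20 and -1.68 in control cells. Both knockout values lay below both control values. On the linear scale the probe's processed signal was 7.66 and 14.7 in knockout cells and 212 and 76.9 in control cells. Knockout 1 was not well above background, where the dimmest probe so marked had a signal of 12.3, so the slide 1 value of knockout cells is not a measured level. On slide 2, where both arrays were well above background, the difference was -2.43, a 5.38-fold lower signal in knockout cells. That size rests on 1 pair of arrays. The knockout 2 signal of 14.7 was itself near the dimmest so marked on its array, 9.96. The fitted mean difference of -3.58 includes the dim knockout 1 value and is no measured size; it did not pass over all genes (limma, adjusted p = 0.468 without the block and 0.119 with it). With knockout 1 set at the dimmest signal so marked, a choice made after its value was seen, the mean difference was -3.25. With normexp correction it was -1.50. That correction adds an offset of 50 to each signal, which by itself shrinks log2 differences of dim probes, and the part of the offset was not tested. Dhx58 passed without knockout 2 (limma, adjusted p = 0.0402) and without control 2 (limma, adjusted p = 0.0160), but the first fit has only the dim knockout 1 value for knockout cells and the second rests on it in part, so neither gives a measured size. Because Dhx58 entered the test through its control arrays, where it is high, its difference is in part set by the filter.

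Ddx58 encodes RIG-I, which recognises short duplexes with a triphosphate end. Its brighter probe was at -0.96 and -0.52 in knockout cells and at 0.41 and -0.07 in control cells. The highest knockout array was 0.45 below the lowest control array, and these 2 arrays shared slide 2. The mean difference was -0.91 (SE 0.29 without the block, n = 2 per group), with -1.37 on slide 1 and -0.45 on slide 2. It did not pass over all genes (limma, adjusted p = 1.00 without the block and 0.293 with it). With normexp correction, whose offset shrinks log2 differences of dim probes, the mean difference was -0.60. The dimmer probe of Ddx58 was at -3.51 and -2.70 in knockout cells and at -1.27 and -2.04 in control cells. It lay on the same side, at a difference of -1.45, and here too slide 1 (-2.24) differed more than slide 2 (-0.66).

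Ifih1 encodes MDA5, which recognises long duplexes such as poly(I:C) itself. Its brighter probe was at -0.93 and -0.96 in knockout cells, against 0.49 and -0.37 in control cells. On this probe the 2 knockout arrays were nearly equal, and the spread was in the control arrays. The mean difference was -1.00 (SE 0.34 without the block, n = 2 per group), a 2.00-fold lower signal. It did not pass over all genes (limma, adjusted p = 1.00 without the block and 0.261 with it). Without control 1 the difference was -0.57. The dimmer probe was at -1.44 and -2.21 in knockout cells and at -0.87 and -1.21 in control cells, a difference of -0.79. Its spread was larger in the knockout arrays (SD 0.54, against 0.24 in control cells). The probes of Ifih1 did not share a slide pattern: the brighter differed by -1.42 on slide 1 and -0.59 on slide 2, the dimmer by -0.58 on slide 1 and -1.00 on slide 2.

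Mavs, the mitochondrial adaptor that RIG-I and MDA5 both need, was at -1.02 and -1.81 in knockout cells and at -1.45 and -1.64 in control cells. The control values lay between the knockout values. Its mean difference was 0.13, with a 95% interval from -0.75 to 1.01 without the block and from -0.43 to 0.70 with it (limma). The sign turned on 1 array: without knockout 1 the difference was -0.26.

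**Figure D2:**
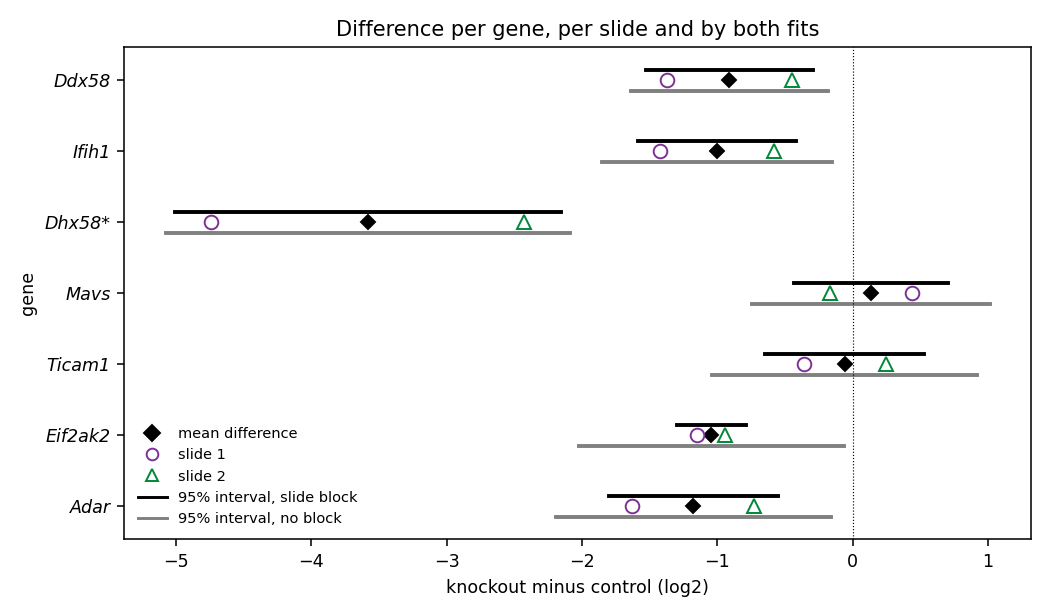
Knockout minus control (log2) for the 7 tested sensor genes: diamonds are the mean of both slides, open circles slide 1, open triangles slide 2, black lines the 95% interval with the slide as a block and grey lines that without it. The asterisk marks Dhx58, whose fitted -3.58 includes a knockout 1 signal not well above background; the other 4 lower genes lie between -1.18 and -0.91, and Mavs and Ticam1 straddle 0.

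Tlr3 encodes the endosomal receptor, and its 1 probe was not well above background on any of the 4 arrays. Its processed signal was 3.22 and 2.35 in knockout cells and 6.42 and 7.12 in control cells, all under the dimmest signal marked as well above background on the same array, which ran from 9.96 to 12.3. No fold is given for it and it was not tested. Ticam1, the adaptor of TLR3, was well above background on every array, at -2.16 and -1.23 in knockout cells and at -1.80 and -1.48 in control cells. The control values again lay between the knockout values. Its mean difference was -0.06, with a 95% interval from -1.04 to 0.92 without the block and from -0.65 to 0.53 with it (limma, adjusted p = 1.00 and 0.941). Its sign depended on the arrays used, with 0.40 without knockout 1 and 0.10 without control 2, and was 0.02 with normexp correction.

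Eif2ak2 encodes PKR, the kinase that stops translation on binding double-stranded RNA. Its 1 probe was at 2.39 and 1.67 in knockout cells and at 3.54 and 2.61 in control cells. Knockout cells were lower on each slide by a similar amount, 1.15 on slide 1 and 0.94 on slide 2, but the higher knockout array (slide 1) came within 0.22 of the lower control array (slide 2). Eif2ak2 fell 2.06-fold with the slide as a block (limma, difference -1.05, SE 0.10 in that fit, n = 2 per group, adjusted p = 0.0346). There it ranked 73 among all genes by p. Without the block its SE was 0.39. With the block the SE was 0.24 for Ddx58, 0.23 for Ifih1 and 0.25 for Adar. The call was absent without the block (adjusted p = 1.00) and with the block but no intensity trend in the variance (adjusted p = 0.479). Leaving out 1 array in the fit without the block moved the difference between -0.58 without control 1 and -1.51 without control 2, and it was -0.68 without knockout 2.

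Adar encodes the enzyme that edits adenosine to inosine in duplex RNA, made as a constitutive nuclear form and a longer interferon-inducible form, which these probes were not assigned to. The brighter probe was at -1.16 and -1.37 in knockout cells, against 0.47 and -0.64 in control cells. The groups did not overlap, and on this probe, as on the brighter Ifih1 probe, the spread was in the control arrays. The mean difference was -1.18 (SE 0.41 without the block, n = 2 per group), a 2.26-fold lower signal. It did not pass over all genes (limma, adjusted p = 1.00 without the block and 0.225 with it). Without control 1 the mean difference was -0.62. The dimmer probe was at -1.65 and -2.69 in knockout cells and at -1.28 and -1.17 in control cells, a difference of -0.94. Its spread was in the knockout arrays (SD 0.73, against 0.08 in control cells). On slide 1 the probes differed by -1.63 (brighter) and -0.37 (dimmer), and on slide 2 by -0.73 (brighter) and -1.51 (dimmer), so the order of the slides was opposite for the 2 probes.

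**Figure D3:**
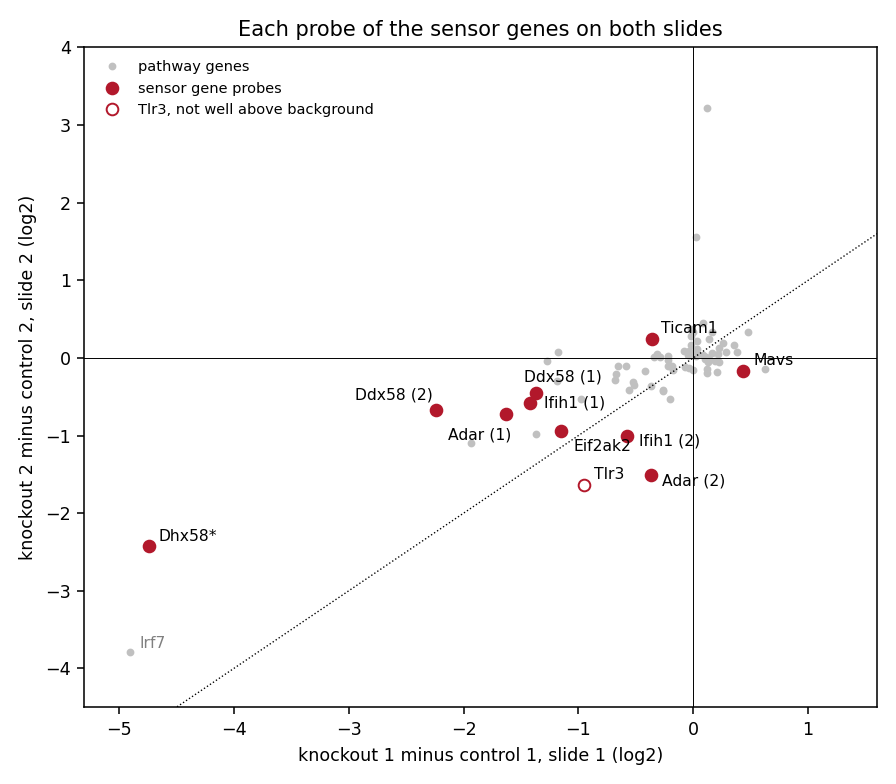
Knockout minus control (log2) on slide 1 (x axis) and slide 2 (y axis) for each of the 11 sensor probes, numbered from the brightest where a gene has several, with pathway genes in grey and equal differences on the dotted line. The brighter probes of Ifih1 and Adar lie above the line and their dimmer probes below it; Dhx58 (asterisk) differs by -2.43 on slide 2, and its slide 1 position is not a measured difference because knockout 1 was not well above background.

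Of the 3 members whose window holds the ISRE core, Eif2ak2 fell with the slide block and Ddx58 and Ifih1, lower on each slide, did not pass. Adar differed by -1.18 without these letters in its windows. Mavs, Ticam1 and Tlr3 have windows without the core. Among all tested genes with a RefSeq window, 446 held the core, of which 21.3% had both knockout arrays below both control arrays and 2.69% were called lower with the slide block. Among the 11360 without it these shares were 10.9% and 0.229%. The median difference was -0.01 with the core and 0.04 without it. The shares include genes kept through their control arrays only, whose lower knockout values are in part set by the filter. The genes with the core include Ddx58, Ifih1 and Eif2ak2 themselves. No test was made on these shares.

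The partners of these sensors were examined as 5 lists holding 80 genes in all, of which 68 were tested. With the slide as a block 1 of the 68 fell and 0 rose over all genes (limma), against 0.33% and 0.0322% of all genes. Without the block 0 passed. Before adjustment 5 were lower and 0 higher at p under 0.05 in that fit, against 1.72% and 1.04% of all genes. The 5 include Ifnk, which was kept through its control arrays. Among 26 regulators and signalling proteins downstream of RIG-I and MAVS, Irf7, a transcription factor for interferon genes that interferon itself induces, was at -2.84 and -2.46 in knockout cells and at 2.07 and 1.33 in control cells. Its signal fell 20.4-fold (limma blocked on slide, adjusted p = 0.0131). The other 25 did not pass, and the list's median difference was -0.09, against 0.02 over all genes.

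The proteins that ubiquitinate RIG-I did not pass over all genes. Trim25, an E3 ligase for RIG-I, was at 5.72 and 6.10 in knockout cells and 6.70 and 6.63 in control cells, a difference of -0.75 (limma blocked on slide, adjusted p = 0.114). Rnf135, the ligase Riplet that activates RIG-I, differed by -0.49, and Rnf125, a ligase that promotes its degradation, by -0.44. All 3, named for their small p, had both knockout arrays below both control arrays, as did 8 of the 26 genes of the list and 11.5% of all genes. Both knockout arrays lay above both control arrays for 3 of the 26, and for 3603 of all 24864 genes. On both slides 12 of the 26 were lower and 8 higher, against 6790 lower and 8420 higher of all 24864 genes. Of the relays further down, the kinase Ikbke differed by -0.41 and Casp8, a protease of the pathway, by -0.36. Chuk and Pcbp2, of the same list, differed the other way, by 0.26 and 0.27. All of these were named after their values were seen. Traf3 differed by -0.08, the kinase Tbk1 by 0.18, and the transcription factor Irf3, which is activated by phosphorylation rather than by synthesis, by -0.15.

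The targets and relatives of PKR were examined as 14 genes of the eIF2 alpha kinases and the integrated stress response. Their median difference was 0.01, against 0.02 over all genes. On both slides 4 were lower and 4 higher, against 6790 lower and 8420 higher of all 24864 genes. In either fit 0 were called (limma). Eif2s1, which encodes eIF2 alpha itself, differed by -0.08. Eif2ak3 (PERK), the kinase of the endoplasmic reticulum, was at -2.21 and -2.22 in knockout cells and at -0.93 and -2.18 in control cells, so its difference of -0.66 rested on control 1. Trib3, a target of the stress response, was at -2.72 and -0.15 in knockout cells and at -2.84 and -3.37 in control cells, so its difference of 1.67 rested on knockout 2. Dnajc3, an inhibitor of PKR and PERK, differed by -0.43, and Ddit3, a transcription factor of the stress response, by -0.49, neither passing over all genes.

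Other proteins that bind or edit double-stranded RNA had a list median of 0.07 over 14 tested genes, with 0 called in either fit. Adarb1, the second editing enzyme, was not well above background on any array. Zbp1, which binds Z-form RNA and shares the Z-binding domain type with ADAR, was at 2.86 and 2.55 in knockout cells and at 3.04 and 2.70 in control cells, a difference of -0.17. The RNA-binding Zc3hav1 (ZAP) differed by -0.38, Stau2 by 0.41, Strbp by 0.23 and Ilf2 by 0.25.

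Among 11 tested endosomal receptor genes, Tlr9, a receptor for DNA, differed by -0.14 and Unc93b1, which carries TLR3 to endosomes, by -0.13. Ctss, a lysosomal protease, was at 2.84 and 3.30 in knockout cells and at 4.02 and 3.60 in control cells, a difference of -0.74, the lowest of the list (limma blocked on slide, adjusted p = 0.312). Myd88, the adaptor of other Toll-like receptors, differed by -0.34 and Ctsl by 0.24. The list median was -0.08, and 0 of the 11 passed in either fit.

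The products that these sensors switch on were mostly dim. Of the 12 interferon and cytokine genes listed, 11 had a probe and 5 passed the filter; Ifnb1 was not well above background on any array. Tnf was at -3.61 and -2.12 in knockout cells and at -1.68 and -1.03 in control cells (difference -1.52; limma blocked on slide, adjusted p = 0.177). Ifnk, a keratinocyte interferon, was at -4.60 and -4.49 in knockout cells and at -3.23 and -3.51 in control cells. It stood well above background in 1 of 2 knockout samples, so no size is given for its difference. Ifnl3, an interferon lambda, differed by -0.16 and Cxcl9, an interferon-gamma-induced chemokine, by -0.34. None of the 5 passed over all genes in either limma fit, and 2 of them (Ifnk and Tnf) were lower at p under 0.05 before adjustment in the fit without the block, against 1.72% of all genes. Ifnk was kept through its control arrays.

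**Figure D4:**
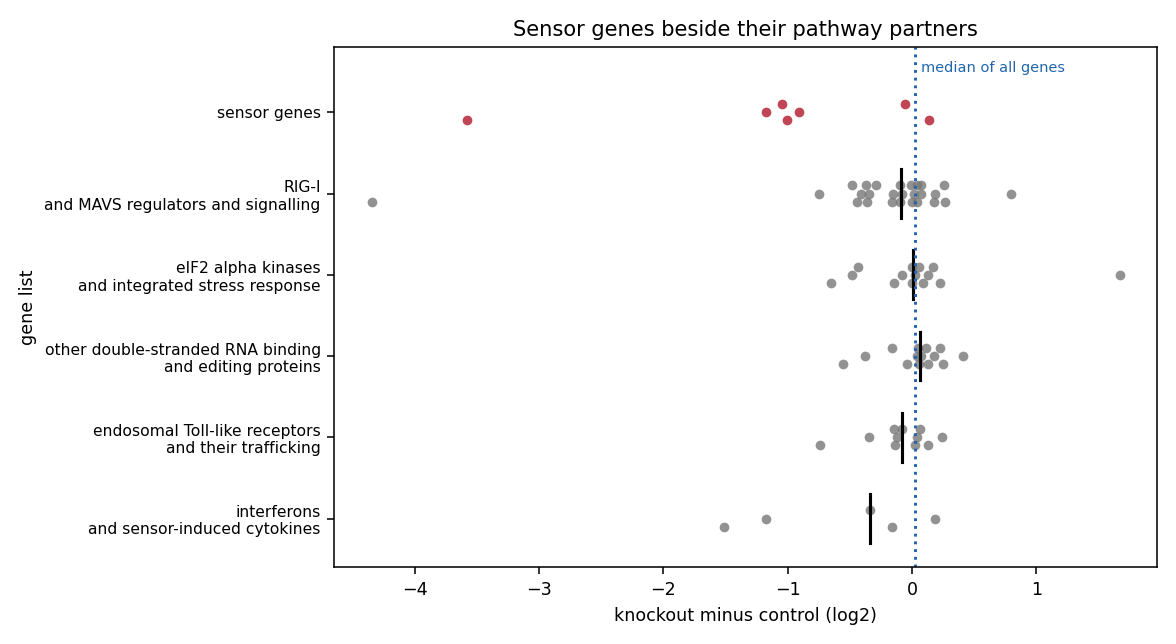
Knockout minus control (log2) for the 7 tested sensor genes (red) and the tested genes of each of 5 pathway lists (grey), with the list median as a black bar and the median of all 24864 genes as a dotted line. The grey point at -4.35 is Irf7 and that at 1.67 is Trib3; the list medians lie between -0.34 and 0.07.

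The genes whose levels over the 4 arrays were most like the mean of the 3 helicases were sought among 13860 named genes well above background on every array, each centred on its own mean, as a description of 4 values only. The nearest was Parp12, an interferon-inducible ADP-ribosyltransferase, with a root mean square difference of 0.05 on the log2 scale, followed by Tgtp1 (0.12), Defa25 (0.18), Ifit2 (0.18) and Oas1g (0.20). Parp12 was at -1.33 and -1.03 in knockout cells and at 1.19 and 0.23 in control cells. That mean includes the knockout 1 value of Dhx58, which was not well above background. With Dhx58 left out of the mean, a choice made after its values were seen, none of these 5 genes was among the 5 nearest. Those were Col4a3 (0.07), Oip5 (0.10), Rab27a (0.10), Vldlr (0.11) and Lypd8 (0.11). The measure centres levels without scaling them, so it matches the size of a difference as well as its pattern. Dhx58, with a fitted -3.58, made the mean difference larger than Ddx58 (-0.91) and Ifih1 (-1.00) did alone. The 5 genes nearest with Dhx58 differed by -2.21 to -1.72, and the 5 nearest without it by -1.01 to -0.75. The nearest genes thus depended on whether Dhx58 was in the mean, and size and pattern were not told apart. The part of the Dhx58 knockout 1 value alone was not tested. Eif2ak2 had the nearest profiles in Dst (0.09), Rbm20 (0.11) and Alpk1 (0.12), whose differences ran from -1.10 to -0.94.

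**Figure D5:**
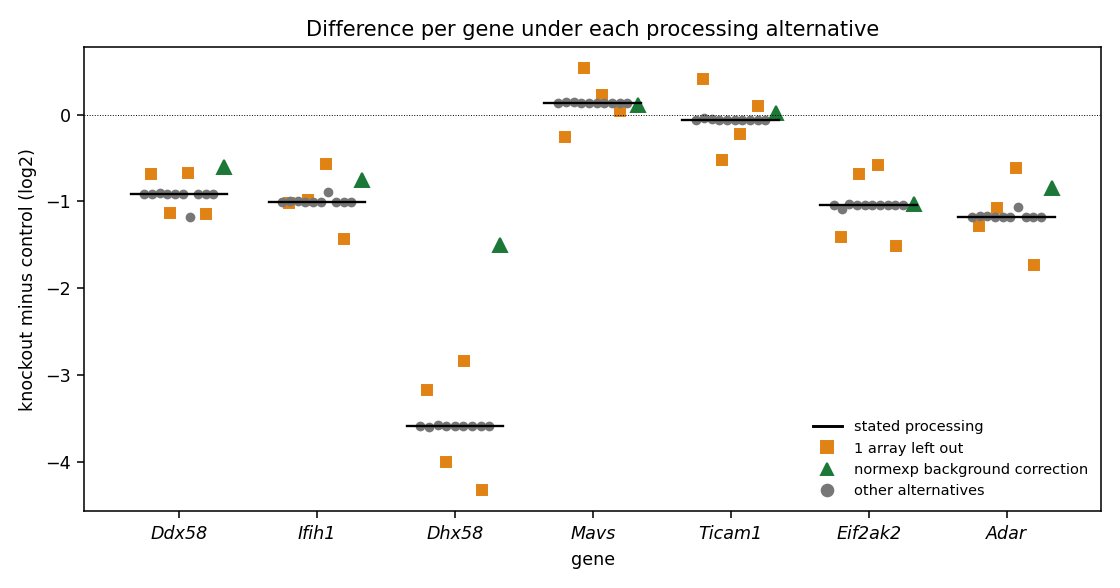
Knockout minus control (log2) for each tested sensor gene under each way of processing: the black line is the stated processing, squares leave out 1 array, the triangle uses normexp background correction and grey circles are the others. The 5 lower genes stay below 0 throughout, Dhx58, drawn with its dim knockout 1 value, is at -1.50 with normexp, and Mavs and Ticam1 have values on both sides of 0. The normexp offset of 50 shrinks differences of dim probes.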

How the data were processed

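Total RNA (20 ng) was amplified and Cy3-labelled, per the labels' protocols, and hybridised to single-colour Agilent arrays. The deposited tables hold background-subtracted spot intensity and flags from Agilent Feature Extraction 12.0.3.1, per the file headers; the submitters' processing notes name 11.5.1.1. The authors' series table is the same intensity multiplied by 1 constant per array (5.60 to 6.68; column medians 239 and 223 in the knockout, 249 and 231 in the control), uncentred, with the target of the scaling unknown.

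Control and outlier spots were left out, log2 intensity was averaged per probe, and each array's 75th percentile was subtracted. A probe was kept if either group had it well above background on both its arrays (35421 probes), and a gene was represented by its brightest. Accessions matched the RefSeq table of GRCm38.p6 for 28331 of 55681 probes. Groups were compared with limma 3.58.1 (R 4.3.3), with an intensity trend and Benjamini-Hochberg adjustment over 24864 genes at 0.05. The code was checked on simulated independent noise with planted differences, which does not test the fits on the variation of these arrays. The stated fit has no block; replicate number equals slide per the file headers, and the slide-block fit is given beside it. Same-slide samples deviated together (r = 0.563 across genes, which are not independent replicates). Members, lists and tests were chosen with earlier results of these data known. Genes named were the members, up to 4 per list by smallest unadjusted p, 13 fixed genes, and those marked as named after their values were seen. Alternatives covered scaling, background, the authors' table, filter, probe rule, outlier flags, variance trend, block and each array left out. Normexp (offset 50) ran on the median signal.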

Additional observations from a re-analysis of the deposited data

How the results depend on the processing

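With the replicate block, which pairs samples by replicate number and slide, 82 genes were called lower and 8 higher over all genes, against 0 and 0 without it; 1 sensor gene (Eif2ak2) and 1 pathway gene (Irf7) were among the lower ones. The block changed no other call of a sensor or pathway gene. It leaves 1 residual degree of freedom, and without the intensity trend it called 0 genes (1025 lower and 1036 higher at p under 0.05 before adjustment). Leaving out 1 array gave 9 to 88 lower and 0 to 3 higher genes, 0 to 1 sensor genes (Dhx58 without knockout 2 or control 2, both resting on its knockout 1 signal, which was not well above background) and 1 pathway gene, Irf7, each time; the lone sample of the reduced group is there assumed to vary like the other group. Testing each probe by itself, an alternative chosen after seeing the data, called 1 sensor probe (Eif2ak2) with the replicate block and 0 without it. Ddx58, Ifih1, Dhx58, Eif2ak2 and Adar kept a lower value in knockout cells under every alternative that gave one, and Dhx58 has no value where the filter asks for signal well above background on each of the 4 arrays. With 1 array left out Mavs ran from -0.26 (without knockout 1) to 0.53 (without knockout 2), and Ticam1 from -0.52 (without knockout 2) to 0.40 (without knockout 1), with 0.10 without control 2. Ticam1 was 0.018 with normexp; the cause was not tested. Tlr3 had a value only with no filter on dim probes, and signal over background limits what can be said of it and of Dhx58 in knockout 1.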
